A study of Sus scrofa with 2 samples.

Results

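Collagens and the matrix genes of the meninges were followed in the hippocampus, a forebrain region that serves memory, of Rongchang piglets. The set holds every gene whose symbol is COL followed by a number, together with 9 genes of matrix proteins or proteoglycans (FN1, DCN, LUM, BGN, FMOD, POSTN, SPARC, FBLN1 and FBN1) and 2 transporters of the meninges (SLC13A4 and SLC6A13). It came to 42 of the 25322 Ensembl gene IDs in the table, of which 31 were collagens. OGN, which the choice also names, and 13 of 44 collagen symbols looked for, among them COL1A1, COL4A1 and COL18A1, could not be matched to an ID. One sample came from piglets given iron dextran, an iron and sugar polymer complex injected into piglets against iron deficiency, and the other from control piglets. Both are labelled as the same wild-type genotype and breed. The sources used here do not give the dose, route, age, sex or number of animals.

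Each group was 1 sample, so no test could be made, no difference below has a replicate check, and the spread between piglets is unknown. The description of each sample lists 2 names without saying whether they are animals, libraries or sequencing runs. Expression is given as FPKM (fragment counts divided by transcript length and by the library's mapped fragments), which allows levels to be compared between genes. FPKM summed to 850165 in iron dextran and 924070 in control, and the number of fragments is unknown. A value of exactly 0 may be a failed estimate: the housekeeping genes RPS21 and COX10 were listed at 0 in both samples. In bulk tissue, fewer cells of a type and less RNA per cell cannot be told apart.

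Collagens are proteins of 3 chains wound into a triple helix. Fibrillar collagens form the fibres of connective tissue, type IV collagen forms the sheets of basement membranes, and the FACIT collagens lie on the surface of fibres. Brain tissue has little fibrillar collagen, and most of it is made by fibroblasts of the meninges and around vessels, whereas endothelial cells and pericytes make much of the type IV collagen. Fibronectin, fibulins and the small leucine-rich proteoglycans bind to these fibres and organise them. SLC13A4, a sulfate transporter, and SLC6A13, a transporter of GABA and taurine, are known from meningeal cells.

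Most of these genes were less abundant in the iron dextran sample, by small differences. A mean FPKM of at least 1 was reached by 25 of the 42 genes, and differences are of log2(FPKM + 1), iron dextran minus control, a scale that understates the change of low genes. Of the 25, 18 were below 0, which is 72.0%, against 51% of all 12557 genes at that level and 51.6% of those with a symbol. Their median difference was −0.27, against −0.0046 over all genes. Genes were called higher or lower if they differed by 1.5-fold or more on that scale. By that rule 1 of the 25 was lower, the collagen VI chain COL6A2, where 1.47% of all genes and 0.643% of genes with a symbol were lower. None of the 25 was higher, where 2.47% of all genes and 1.25% of genes with a symbol were. Over all 42 genes, with no filter on level, 27 were below 0, which is 64.3%, against 50.1% of the 17452 genes above 0 in either sample. Below the lower quartile of all genes, −0.12, lay 17 of the 25, where 25% of all genes lie by definition, and 3 lay above the upper quartile, 0.14.

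**Figure D1:**
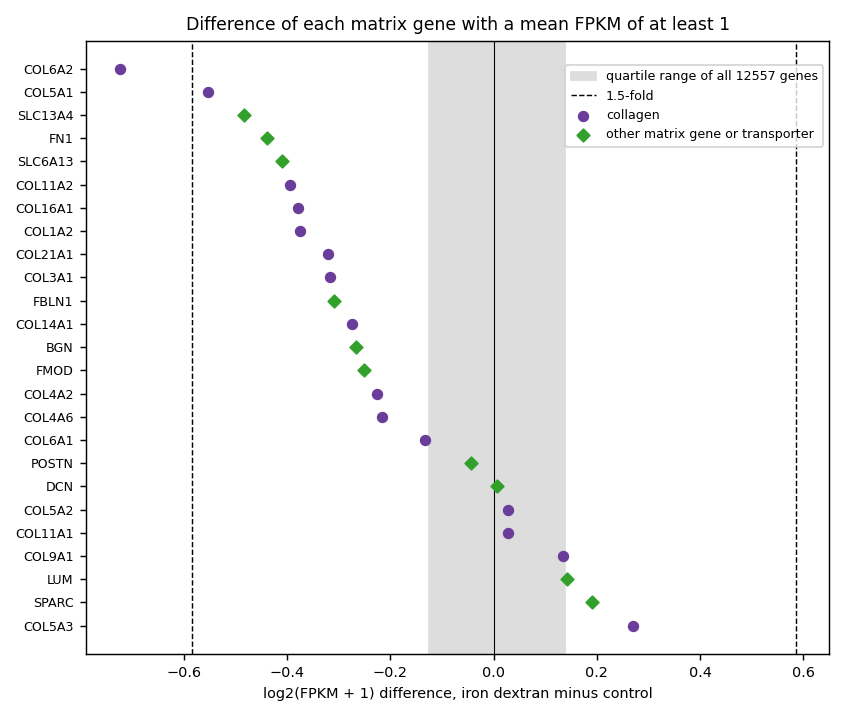
Difference of log2(FPKM + 1) between iron dextran and control, positive where iron dextran is higher, for the 25 genes that averaged 1 FPKM or more (circles, collagens; diamonds, other genes). The grey band spans the quartiles of all 12557 genes and the dashed lines mark 1.5-fold. COL6A2, at −0.72, lies beyond the left line, and 17 genes lie left of the band.

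The collagens and the other genes of the set both had medians below 0. The 15 collagens had a median of −0.27 with 11 below 0, and the 10 other genes had a median of −0.26 with 7 below 0. Those 10 take in the 2 transporters, with a median of −0.45. The 4 proteoglycans had a median of −0.12 with 2 below 0, and the 4 glycoproteins −0.18 with 3 below 0. Summed over all 31 collagens, the level was 67.0 FPKM in iron dextran and 82.4 FPKM in control, a ratio of 0.813. Over the 11 other genes the sum ran the opposite way, with 648 FPKM in iron dextran and 625 FPKM in control. SPARC alone made up 64.6% of the sum over all 42 genes in iron dextran and 57.1% in control. Without SPARC, all 41 remaining genes summed to 253 FPKM in iron dextran and 304 FPKM in control.

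**Figure D2:**
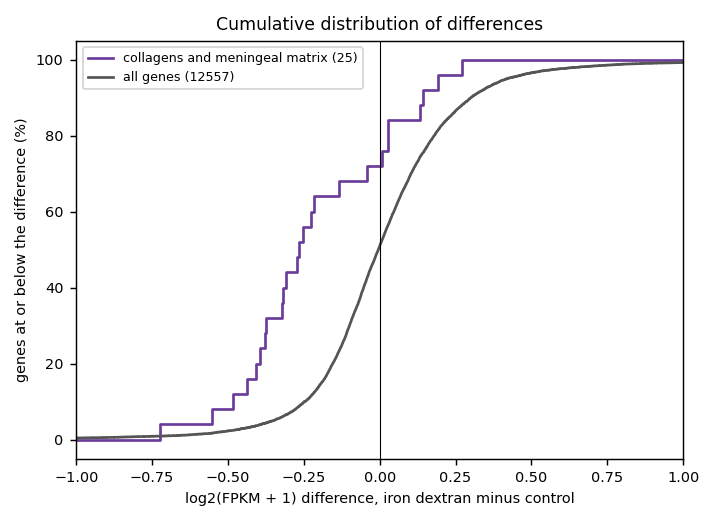
Share of genes (vertical axis, %) at or below each log2(FPKM + 1) difference, iron dextran minus control (horizontal axis), for the 25 genes of the set and for all 12557 genes. At a difference of 0 the genes of the set have reached 72.0% and all genes 51.0%. Genes beyond 1 in either direction are not drawn.

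Levels spanned a wide range, and the order of the genes was much the same in both samples. SPARC (ENSSSCG00000017082), a secreted glycoprotein that binds collagen and calcium, was the most abundant, at 461 FPKM in iron dextran and 404 FPKM in control. BGN (ENSSSCG00000012766), the proteoglycan biglycan, came next, at 127 FPKM in iron dextran and 153 FPKM in control. These genes were the only 2 above 100 FPKM, and together they made up 82.3% of the summed FPKM of all 42 genes in iron dextran and 78.7% in control. Decorin, COL4A2 and fibronectin held ranks 3 to 5 in both samples. The median level of the 25 genes was 3.95 FPKM in iron dextran and 5.13 FPKM in control, below the 9.78 and 9.63 FPKM of all genes in iron dextran and in control.

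**Figure D3:**
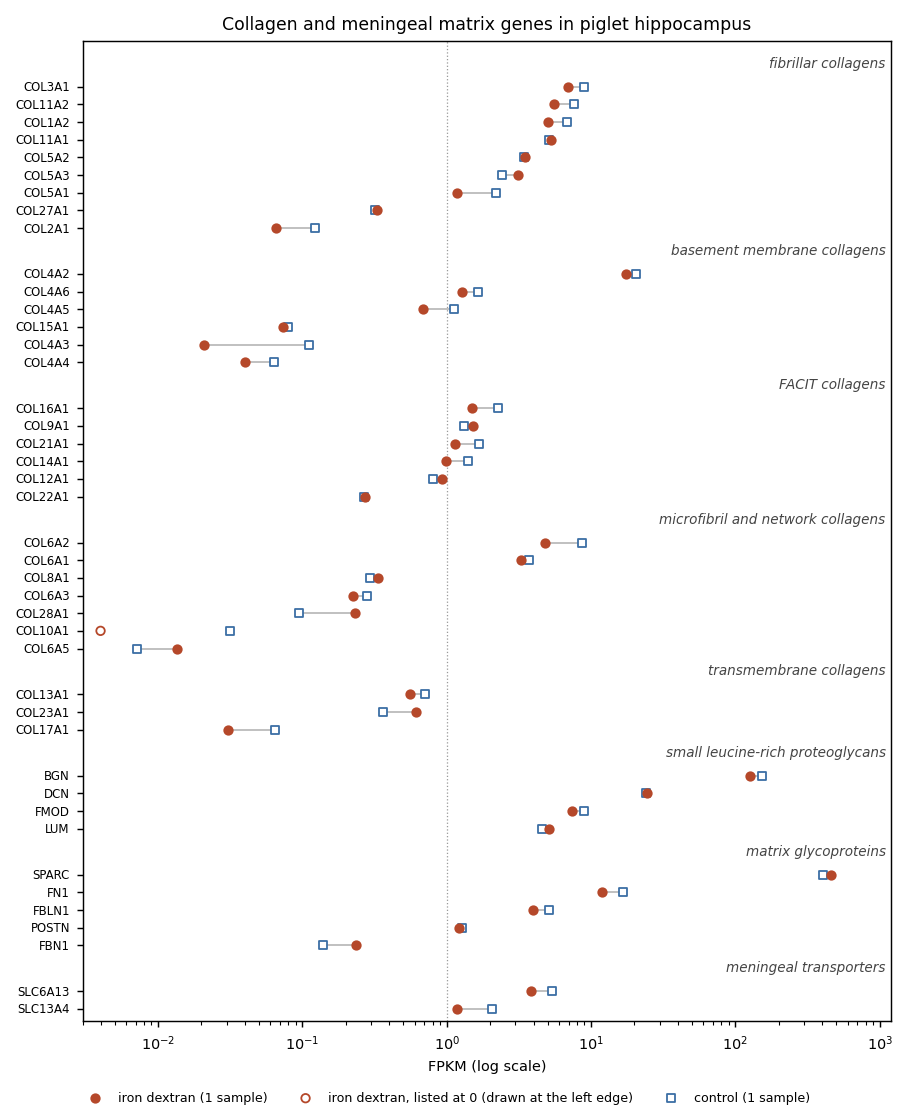
FPKM on a log scale of all 42 genes in the iron dextran sample (filled circles) and the control sample (open squares), grouped by role; the dotted line marks 1 FPKM. COL10A1, listed at 0 in iron dextran, is drawn at the left edge. SPARC and BGN stand at the right, and most genes above 1 FPKM have the circle left of the square.

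Among fibrillar collagens, the chains of types I and III were below 0 on the difference scale, while some chains of types V and XI were not. COL3A1 (ENSSSCG00000016034), the chain of type III collagen of soft tissues and vessel walls, had 6.96 FPKM in iron dextran and 8.92 FPKM in control, a difference of −0.32. COL1A2 (ENSSSCG00000015326), a chain of type I collagen, the main fibre protein, had 5.07 FPKM in iron dextran and 6.87 FPKM in control, a difference of −0.38. The ratio of iron dextran to control was 0.780 for COL3A1 and 0.737 for COL1A2, and COL1A2 stood at 0.728 of COL3A1 in iron dextran and 0.770 in control.

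Type V collagen, a minor collagen that sets the diameter of type I fibres, differed in the shares of its chain transcripts. The chains of the protein were not measured. COL5A1 (ENSSSCG00000005751) had 1.18 FPKM in iron dextran and 2.21 FPKM in control, a difference of −0.55. COL5A2 (ENSSSCG00000016035) had 3.50 FPKM in iron dextran and 3.41 FPKM in control. COL5A3 (ENSSSCG00000013667) had 3.11 FPKM in iron dextran and 2.41 FPKM in control, a difference of 0.27 and the highest of the 25 genes. COL5A1 therefore made up 15.2% of the summed type V FPKM in iron dextran and 27.5% in control, and COL5A3 40.0% in iron dextran and 30.05% in control. The sum of the 3 chains was close between samples, at 7.79 FPKM in iron dextran and 8.03 FPKM in control. COL5A1 was not called lower on the log2(FPKM + 1) scale, while without a pseudocount its ratio was 0.537, past 1.5-fold.

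The chain transcripts of type XI collagen, best known from cartilage, also differed from each other. COL11A2 (ENSSSCG00000001473) had 5.57 FPKM in iron dextran and 7.63 FPKM in control, a difference of −0.39. COL11A1 (ENSSSCG00000006857) had 5.25 FPKM in iron dextran and 5.13 FPKM in control, a difference of 0.03. The COL11A2 level was 1.06 times that of COL11A1 in iron dextran and 1.49 times in control. Of the 9 fibrillar chains with an ID, 7 passed the level of 1 FPKM, with a median difference of −0.32, 4 below 0 and 3 above. COL27A1 and COL2A1, the chain of cartilage collagen, lay below it, COL27A1 at 0.331 FPKM in iron dextran and 0.320 FPKM in control, and COL2A1 at 0.0659 FPKM in iron dextran and 0.123 FPKM in control.

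Type VI collagen, which forms beaded microfibrils around cells, had the lowest ratio of iron dextran to control, 0.662, of the collagen types above 1 FPKM, just under the 0.667 of type XVI. COL6A2 (ENSSSCG00000028022) had 4.83 FPKM in iron dextran and 8.62 FPKM in control, a ratio of 0.560 and a difference of −0.72, at percentile 0.908 of the differences of all genes. COL6A1 (ENSSSCG00000022506), which assembles with it, had 3.29 FPKM in iron dextran and 3.71 FPKM in control, a difference of −0.13. The COL6A2 level was 1.47 times that of COL6A1 in iron dextran and 2.32 times in control. COL6A3, the third classical chain, was far less abundant, at 0.224 FPKM in iron dextran and 0.279 FPKM in control, which is 0.0680 and 0.0754 of COL6A1 in iron dextran and in control. All 4 type VI chains summed to 8.36 FPKM in iron dextran and 12.6 FPKM in control.

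**Figure D4:**
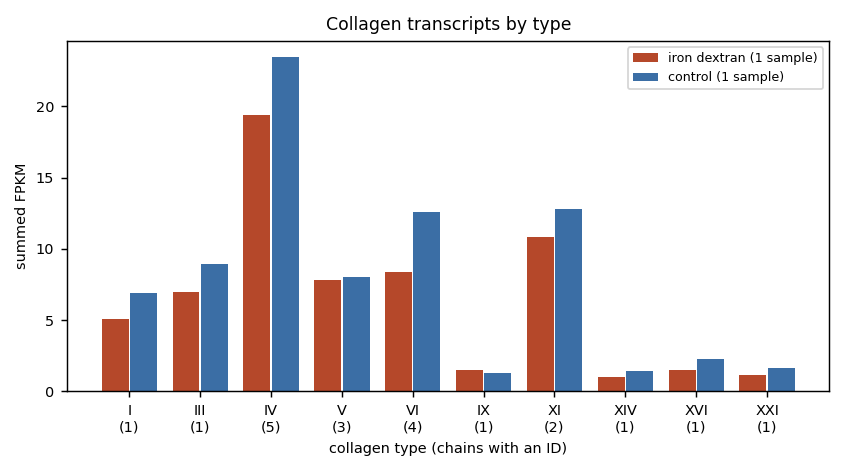
Summed FPKM of the chains of each collagen type whose mean sum was at least 1 FPKM (iron dextran left, control right; the number of chains with an ID is in brackets; 1 sample per group, so no error bars). Type IV has the highest sum, at 19.4 FPKM in iron dextran and 23.4 FPKM in control, and type VI has the widest gap. The sums run over unlike numbers of chains and lack those without an ID, such as COL1A1 and COL4A1.

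Of the basement membrane collagens with an ID, 1 chain held most of the FPKM. COL4A1, COL18A1 and COL7A1 had no ID, so their part is unknown. COL4A2 (ENSSSCG00000009545), one of the chains of the type IV collagen found in nearly all basement membranes, had 17.4 FPKM in iron dextran and 20.5 FPKM in control, a difference of −0.23. It made up 89.6% of the summed type IV FPKM in iron dextran and 87.5% in control, with COL4A1 not among the IDs. COL4A6 (ENSSSCG00000012571) had 1.27 FPKM in iron dextran and 1.64 FPKM in control, a difference of −0.22. COL4A5, with which it forms a network in some membranes, had 0.689 FPKM in iron dextran and 1.12 FPKM in control, under the mean of 1 FPKM. COL4A3 and COL4A4, chains of the kidney filter, and COL15A1 were at 0.111 FPKM or less in both samples.

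Of the FACIT collagens, 3 of the 4 that passed 1 FPKM were below 0, with a median of −0.30. COL16A1 (ENSSSCG00000003603) had 1.51 FPKM in iron dextran and 2.26 FPKM in control, a difference of −0.38. COL21A1 had 1.14 FPKM in iron dextran and 1.67 FPKM in control, and COL14A1 had 0.990 FPKM in iron dextran and 1.41 FPKM in control. COL9A1, a chain of a cartilage FACIT collagen, was the exception, at 1.53 FPKM in iron dextran and 1.31 FPKM in control, a difference of 0.13. COL12A1 and COL22A1 did not reach 1 FPKM.

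The small leucine-rich proteoglycans, which coat collagen fibres, were split. BGN had a difference of −0.27, and FMOD (ENSSSCG00000015270), fibromodulin, had 7.41 FPKM in iron dextran and 9.02 FPKM in control, a difference of −0.25. DCN (ENSSSCG00000000915), decorin, was level, at 24.3 FPKM in iron dextran and 24.2 FPKM in control. LUM (ENSSSCG00000000916), lumican, had 5.12 FPKM in iron dextran and 4.55 FPKM in control, a difference of 0.14. The LUM level was 0.690 of FMOD in iron dextran and 0.504 in control.

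Among the matrix glycoproteins, FN1 (ENSSSCG00000016174), fibronectin, had 12.0 FPKM in iron dextran and 16.6 FPKM in control, a difference of −0.44. FBLN1 (ENSSSCG00000000010), fibulin 1, had 3.95 FPKM in iron dextran and 5.14 FPKM in control, a difference of −0.31. POSTN, periostin, had 1.21 FPKM in iron dextran and 1.28 FPKM in control, a difference of −0.04 that turned to 0.02 with both columns set to an equal total. SPARC was above 0, with a difference of 0.19. FBN1, fibrillin 1 of elastic microfibrils, was at 0.234 FPKM in iron dextran and 0.140 FPKM in control, too low to compare.

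Both meningeal transporters had differences below 0. SLC6A13 (ENSSSCG00000030076) had 3.82 FPKM in iron dextran and 5.40 FPKM in control, a difference of −0.41. SLC13A4 (ENSSSCG00000016527) had 1.18 FPKM in iron dextran and 2.05 FPKM in control, a difference of −0.48. Their summed level in iron dextran was 0.671 of that in control. Without a pseudocount, 3 of the 25 genes, COL6A2, COL5A1 and SLC13A4, had at least 1.5 times less FPKM in iron dextran, where 2.85% of all genes did, and none had 1.5 times more, where 4.81% did.

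The other 17 genes lay below a mean of 1 FPKM and showed no shared direction. Of these, 9 had less FPKM in iron dextran and 8 had more, and the highest values were 0.925 FPKM in iron dextran, for COL12A1, and 1.12 FPKM in control, for COL4A5. COL10A1, a collagen of growth cartilage, was listed at 0 in iron dextran and had 0.0316 FPKM in control. COL23A1, a transmembrane collagen, had 0.611 FPKM in iron dextran and 0.362 FPKM in control, and COL13A1, another, had 0.555 FPKM in iron dextran and 0.708 FPKM in control. COL8A1, a network collagen of vessel walls, had 0.332 FPKM in iron dextran and 0.296 FPKM in control. COL28A1 had 0.234 FPKM in iron dextran and 0.0953 FPKM in control.

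The steps between low values bear on how many fragments lay behind the rarest of these genes but do not fix the number. Over 690 genes with a control FPKM under 0.1, the commonest ratio of iron dextran to control was 0.947. It was met within 0.05 on the log2 scale by 194 of them, and would be the worth of 1 fragment in iron dextran relative to control. The ratio of COL6A5 was 2.01 times that value, that of COL17A1 0.496 times and that of COL4A3 0.198 times. Read as the smallest whole fragments, these are near 2 to 1, 1 to 2 and 1 to 5. Multiples of those counts give the same ratios, so whether these 3 genes rest on few fragments cannot be told. Other low genes of the set stood elsewhere, such as COL4A4 at 0.661 times that value and COL2A1 at 0.564 times.

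In the pig assembly Sscrofa11.1, 4 pairs of these genes are direct neighbours among protein-coding genes; COL6A1 and COL6A2 had no chromosome in the table used and were not checked. The COL4A6 and COL4A5 pair lay in the same direction, with differences of −0.22 and −0.33. DCN and LUM, neighbours on chromosome 5, had differences of 0.01 and 0.14. COL3A1 and COL5A2, neighbours on chromosome 15, did not share a direction, at −0.32 and 0.03. The remaining pair, COL4A3 and COL4A4, was too low to compare.

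Genes that build collagen had a median close to that of the collagens. Of 28 genes for collagen synthesis and cross-linking, 21 had an ID, and P4HB, SERPINH1, PPIB and CRTAP were among those without. Of the 21, 16 passed 1 FPKM, with a median difference of −0.25, 11 below 0, 5 above and none past 1.5-fold. P4HA1 had the highest difference, 0.23, at 18.9 FPKM in iron dextran and 15.9 FPKM in control. FKBP10, a chaperone of procollagen, had 5.61 FPKM in iron dextran and 8.42 FPKM in control. PLOD1, a lysyl hydroxylase of collagen, had 21.4 FPKM in iron dextran and 30.6 FPKM in control. COLGALT2, which adds galactose to collagen, had 4.09 FPKM in iron dextran and 5.60 FPKM in control, and BMP1, which trims procollagen, had 8.74 FPKM in iron dextran and 11.5 FPKM in control.

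Other matrix lists had medians nearer to that of all genes, though some had a large share below 0, where 51% of all genes were. The 9 measured matrix proteases and inhibitors had a median of −0.11 with 8 below 0, which is 88.9%. TIMP1, a protease inhibitor, had 18.7 FPKM in iron dextran and 23.8 FPKM in control. The 14 laminins and partners of basement membranes had a median of −0.07 with 9 below 0, which is 64.3%. FBLN2 had 4.77 FPKM in iron dextran and 6.24 FPKM in control. The 17 elastic fibre and other fibroblast matrix genes had a median of −0.05 with 10 below 0. CTHRC1, a secreted protein with a collagen repeat, had 6.54 FPKM in iron dextran and 4.19 FPKM in control. The 10 genes of the matrix around neurons had a median of 0.05 with 4 below 0. RELN, reelin, had 4.29 FPKM in iron dextran and 2.92 FPKM in control. The 6 genes listed as collagen receptors had a median of −0.03, with 3 below 0. The list takes in CD44 and CD93, which are not mainly known as collagen receptors and had its lowest differences, −0.26 and −0.43. CD93 had 12.1 FPKM in iron dextran and 16.7 FPKM in control. The integrin chains ITGA1 and ITGB1 had its highest differences, 0.25 and 0.19. The 16 genes of TGF-beta signalling, a pathway that drives collagen synthesis, had a median of −0.04 with 9 below 0. TGFBR3 had 2.67 FPKM in iron dextran and 1.49 FPKM in control, and the ligand TGFB1 had 18.6 FPKM in iron dextran and 23.4 FPKM in control. On the log2(FPKM + 1) scale no member of these 6 lists was past 1.5-fold, while 1 TGF-beta and 1 elastic fibre gene were called higher with a pseudocount of 0.1 or with an equal column total. An equal column total moves the median of all genes to 0.10 and all lists with it. The medians of the protease, laminin, elastic fibre, receptor and TGF-beta lists were then above 0. Those of the collagens, the 10 other genes of the set and collagen synthesis were −0.21, −0.15 and −0.15.

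**Figure D5:**
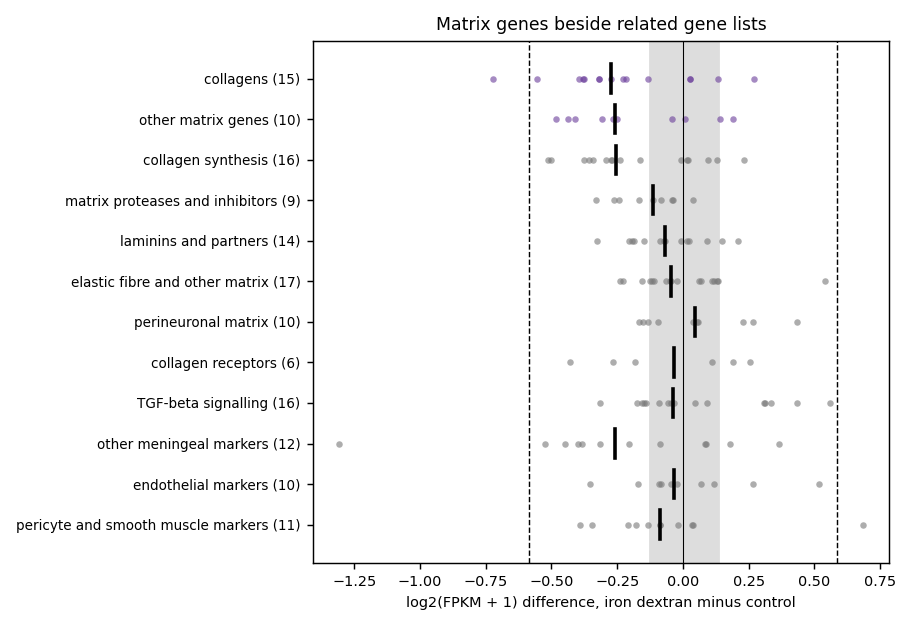
Log2(FPKM + 1) in iron dextran minus that in control for each gene (points) and the list median (black bars) for the collagens, the other genes of the set and 10 related lists, with the number of measured genes in brackets. The row labelled other matrix genes takes in the 2 transporters. The grey band spans the quartiles of all genes and the dashed lines mark 1.5-fold. Bars of the collagens (−0.27), the other genes of the set (−0.26), collagen synthesis (−0.25) and the other meningeal markers (−0.26) lie left of the band.

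Markers of meningeal cells outside the set had a median of the same sign. Of 30 such markers 20 had an ID and 12 passed 1 FPKM, with a median of −0.26 and 8 below 0, and all 20 summed to 132 FPKM in iron dextran and 157 FPKM in control. CRABP2, which binds retinoic acid, was lower, at 2.87 FPKM in iron dextran and 8.58 FPKM in control. S100A6 had 20.1 FPKM in iron dextran and 29.3 FPKM in control, and SLC22A6, an organic anion transporter, had 11.8 FPKM in iron dextran and 16.6 FPKM in control. ZIC1, a transcription factor of meningeal progenitors, had 2.66 FPKM in iron dextran and 3.83 FPKM in control. The 4 markers above 0 were PDGFRA, TBX18, ZIC2 and SLC6A12. PDGFRA, which oligodendrocyte precursors share, had 6.13 FPKM in iron dextran and 4.54 FPKM in control. TBX18 had 1.37 FPKM in iron dextran and 1.09 FPKM in control, and ZIC2 had 13.4 FPKM in iron dextran and 12.5 FPKM in control. SLC6A12 had 5.76 FPKM in iron dextran and 5.38 FPKM in control. ITIH2 was listed at 0 in both samples, ALDH1A2 was below a mean of 1 FPKM, and FOXC1, FOXD1 and PTGDS had no ID. The amount of meninges taken with each hippocampus is not recorded, and its part in the differences was not tested.

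Markers of vessels had medians nearer to 0. The 10 endothelial markers had a median of −0.04, with 6 below 0, none past 1.5-fold and none at 0, and summed to 99.9 FPKM in iron dextran and 99.7 FPKM in control. The median turned to 0.08 with the same column total, where 1 endothelial marker and 3.62% of all genes were called higher. OCLN, of tight junctions, had 10.8 FPKM in iron dextran and 7.29 FPKM in control, and TEK had 1.203 FPKM in iron dextran and 1.81 FPKM in control. The 11 measured markers of pericytes and smooth muscle had a median of −0.09. Of these 8 were below 0, a share of 72.7% beside the 72.0% of the 25 genes of the set. All 13 with an ID summed to 124 FPKM in iron dextran and 138 FPKM in control. HIGD1B was higher, at 10.7 FPKM in iron dextran and 6.28 FPKM in control, and MCAM had 49.0 FPKM in iron dextran and 62.5 FPKM in control. The neuronal markers of the labelled tissue were abundant, and the 10 with an ID summed to 3088 FPKM in iron dextran and 3267 FPKM in control. The 9 that passed 1 FPKM had a median difference of 0.01, and 1 of them, CAMK2A, a kinase of synaptic plasticity, was called higher, at 3.93 FPKM in iron dextran and 1.995 FPKM in control. The 7 astrocyte markers had a median of 0.16 and a sum of 1564 FPKM in iron dextran and 1628 FPKM in control.

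Markers of other neighbouring tissue and of blood were also read. The 5 ependymal markers had a median of −0.21 with all 5 below 0, and all 6 with an ID summed to 36.3 FPKM in iron dextran and 43.4 FPKM in control. FOXJ1 was at 6.14 FPKM in iron dextran and 8.89 FPKM in control. The 3 measured choroid plexus markers had a median of 0.19, while all 7 with an ID summed to 106 FPKM in iron dextran and 114 FPKM in control. Most of that sum was ENPP2, at 80.2 FPKM in iron dextran and 92.8 FPKM in control. TTR had 24.2 FPKM in iron dextran and 19.9 FPKM in control, and KCNJ13 had 1.57 FPKM in iron dextran and 1.26 FPKM in control. Of the erythroid genes, 3 passed 1 FPKM and all 3 were called higher, and the 4 with an ID summed to 519 FPKM in iron dextran and 189 FPKM in control. The part of ependyma, choroid plexus or blood in the matrix differences was not tested.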

How the data were processed

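RNA sequencing of piglet hippocampus gave 1 iron dextran and 1 control sample, and columns were assigned by the letter shared with the sample title. The values are FPKM deposited by the authors, 1 row per Ensembl ID; per the submitters' processing notes, cutadapt 1.2.1 and TopHat were used with the builds Sscrofa10.2 and susScr3. The sources used here do not name the program that made the FPKM, the annotation, the strand setting or any pooling. Depth is unknown, and reads shared between overlapping genes cannot be told apart.

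Symbols came from a table that matched 11804 of 25322 IDs; RefSeq of Sscrofa11.1 gave only gene order. Differences are of log2(FPKM + 1), with a mean FPKM of at least 1 and a call from 1.5-fold, computed in Python 3.11.15 with pandas 2.3.3 and NumPy 2.4.6. The code that makes the calls was checked on simulated data with known folds in genes more abundant than most of this set. That check does not show how reliable the calls are at the levels seen here. The genes and lists were chosen with earlier results of these data known. Genes of the set below a mean of 1 FPKM are given partly by count and range. Of each other list up to 4 genes with the largest difference could be named. PDGFRA, TBX18, ZIC2, SLC6A12 and P4HA1 were named after their values were seen. So were genes at 0, below the filter or without an ID. Alternatives were a pseudocount of 0.1, no filter, a mean FPKM of at least 5, a fold of 2, and columns scaled to the same total, to the median or by TMM (trimmed mean of M values).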

Additional observations from a re-analysis of the deposited data

How the results depend on the processing

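With 1 sample per group no difference can be set against a spread between piglets, and the unknown depth gives no counting interval. The median of the 25 genes was −0.27 as reported and stayed below 0 under every alternative run; it was −0.070 over all 42 genes with no filter and −0.15 with the same column total, where the median of all genes was 0.10 and the gap between the medians −0.25, against −0.26 as reported. Genes lower by 1.5-fold numbered 1 as reported, 3 with a pseudocount of 0.1 (COL6A2, COL5A1 and SLC13A4) and 0 at a fold of 2. Of all genes, 1.47% were lower as reported, 2.64% with a pseudocount of 0.1 and 0.422% at a fold of 2. Genes below 0 numbered 18 of 25 as reported and 8 of the 11 left at a mean FPKM of at least 5, fewer because fewer genes were tested. None of the 25 genes was 1.5-fold higher under any alternative. The other 17 genes entered only with no filter and a pseudocount of 1, which understates the change of low genes. That run cannot decide whether any of them was 1.5-fold higher. Without a pseudocount their ratios of iron dextran to control passed 1.5-fold in both directions, such as 2.45 for COL28A1 and 0.614 for COL4A5. With the same column total, POSTN alone changed direction, and of all genes called at 1.5-fold 77.5% were higher, against 62.6% as reported. Centring on the median and TMM kept the counts of genes of the set below 0, higher and lower at their reported values. No paired analysis was possible because each group has 1 sample.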
